A study of Mus musculus with 6 samples.

Results

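The oligoadenylate synthetase (Oas) and Mx families were followed in haematopoietic stem cells (HSCs) sorted from the bone marrow of mice labelled Irgm1-/- and of wild-type mice. The genes were Oas1a, Oas1b, Oas1g, Oas2, Oas3, Oasl1, Oasl2, Mx1 and Mx2, and a probe set was taken when the platform's annotation gave it exactly 1 of these symbols. That rule found 8 probe sets among 45101 on the array, 1 for each of 8 genes, where the array named 18194 genes in all. No probe set carried Oas1g as its single symbol, so Oas1g has no value here.

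Expression was measured on 6 Affymetrix oligonucleotide arrays, 3 from Irgm1-/- mice (older name Lrg-47-/-) and 3 from wild-type mice. All mice were C57BL/6, were 8 to 12 weeks old and lived free of specific pathogens. The cells were taken by flow sorting as the side population, by the efflux of Hoechst dye, together with antibodies against Sca-1, c-kit and lineage antigens, and RNA was amplified in 2 rounds of T7 transcription before biotin labelling. The labels name neither the deleted part of Irgm1 nor the sex of the mice, nor do they say whether arrays of a group came from separate mice, so p-values measure the spread between these arrays, which may be technical. The probe set of Irgm1 itself read 7.68, 8.58 and 7.84 on the 3 arrays of mice labelled Irgm1-/- and 8.39, 8.57 and 8.36 in the wild-type group, where values are log2 expression (difference −0.41, limma adjusted p = 0.475). A probe set outside the deleted part checks nothing about the genotype, and the groups are named by their labels throughout, as Irgm1-/- and wild-type.

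Both families are made in response to interferon, chiefly through a transcription factor complex that holds Stat2 and Irf9. Oas enzymes bind double-stranded RNA and join ATP into 2'-5' linked oligoadenylates, which activate the ribonuclease RNase L to cut viral and cellular RNA. Mx proteins are large GTPases of the dynamin superfamily that assemble around viral nucleocapsids. In mice, laboratory strains such as C57BL/6 carry defective alleles of Mx1, Mx2 and Oas1b. In the RefSeq table of the C57BL/6J assembly GRCm38.p6, these 3 genes are annotated as transcribed pseudogenes, whereas the other 6 genes are protein-coding.

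The genes lie in 3 groups. Oasl2 and Oasl1 are neighbours on chromosome 5, Oas2, Oas3, Oas1b, Oas1g and Oas1a lie in that order in a cluster elsewhere on chromosome 5, and Mx1 and Mx2 are neighbours on chromosome 16. The RefSeq promoter table for GRCm38.p6 held a window of 250 bases before to 50 after the start for 5 of the 9 genes. Stretches of 100 bases are shown, 5′ to 3′ on the gene's strand, because 3 of the 5 windows carry the core of the interferon-stimulated response element, searched on both strands as GAAA, any 2 bases and GAAA again. Capitals mark each match. The stretch of Oasl1 ends before the outermost annotated start of that gene, and the other 4 end at the table's start.
Oas1a, chr5:120907526-120907625, minus strand: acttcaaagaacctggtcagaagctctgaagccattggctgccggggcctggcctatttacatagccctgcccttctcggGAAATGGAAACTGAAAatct
Oas1g, chr5:120887614-120887713, minus strand: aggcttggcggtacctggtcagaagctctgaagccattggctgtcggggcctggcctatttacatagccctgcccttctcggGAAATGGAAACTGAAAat
Oas3, chr5:120777660-120777759, minus strand: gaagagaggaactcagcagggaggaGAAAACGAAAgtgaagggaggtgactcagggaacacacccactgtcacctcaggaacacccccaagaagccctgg
Oasl1, chr5:114923043-114923142, plus strand: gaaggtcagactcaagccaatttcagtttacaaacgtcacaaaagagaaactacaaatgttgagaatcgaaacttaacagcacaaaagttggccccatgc
Oasl2, chr5:114896834-114896933, plus strand: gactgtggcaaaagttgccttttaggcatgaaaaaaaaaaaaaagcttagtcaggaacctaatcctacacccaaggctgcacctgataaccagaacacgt

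Oas1a and Oas1g hold the same run of 16 bases, in which 2 matches overlap, and their windows share an identical stretch of 73 bases around it. The first match begins 20 bases before the start of Oas1a and 18 before that of Oas1g, and the single match of Oas3 begins 75 bases before its start. The windows of Oasl1 and Oasl2 held no match in 300 bases, which says only that these letters are not in the window. Of all 32851 promoter windows of that length, 3.44% held the core. The core of the gamma-activated site, TTCNNNGAA, which reads the same on both strands, was found in the window of Oas1a alone among the 5, against 8.30% of all windows. These matches describe the letters and are not shown to be sites.

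Oasl1, Oas2 and Oas1a rose in the Irgm1-/- group, by 7.59, 3.45 and 2.52 times. Of 7 tested probe sets, 3 were called higher, 0 lower and 4 did not pass (limma, adjusted p under 0.05 over all 22580 probe sets tested), where 0.664% of all tested probe sets were called higher, 0.722% lower and 1.39% in either direction. At an unadjusted p under 0.05, 6 of the 7 were higher and 0 lower, against 7.52% and 8.90% of all tested probe sets. The Irgm1-/- arrays all lay above the wild-type arrays for 5 of the 7, against 11.5% of all tested probe sets, and below them for 0, against 11.0%. The difference was positive for 7 of 7, against 51.5% of all tested probe sets. The median difference of the 7 was 0.94 on the log2 scale, and the median over all tested probe sets was 0.01. All 7 lay above each array's median on all 6 arrays, so the filter on dim probe sets did not depend on the group in which a gene was high. The eighth, Mx2, was not tested. In bulk RNA such as this, fewer cells of a type and less RNA per cell cannot be told apart.

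**Figure D1:**
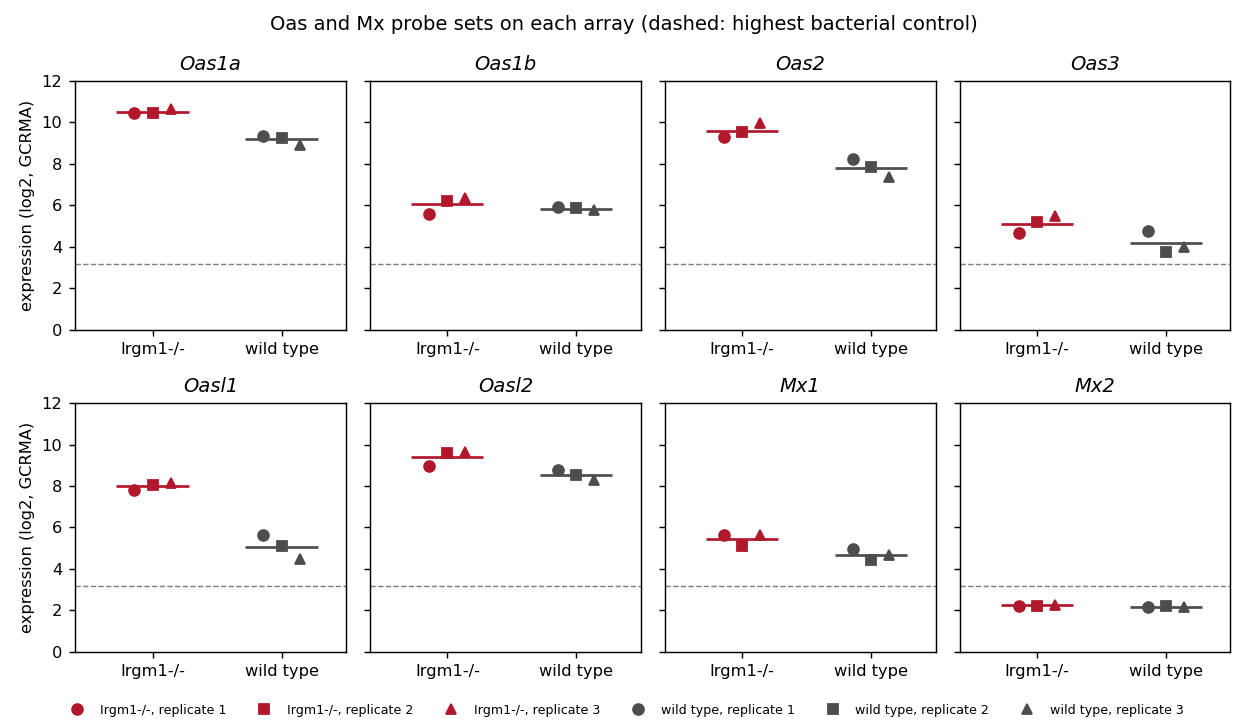
Log2 expression (vertical axis) of the 8 Oas and Mx probe sets on each array, with arrays of mice labelled Irgm1-/- in red at the left and wild-type arrays in grey at the right of each panel. Bars are means of 3 arrays, marker shapes are replicate numbers, and the dashed line is the highest bacterial control (3.18). Oasl1, Oas2 and Oas1a show the widest gaps between the groups, and Mx2 lies under the line on all 6 arrays.

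Oas1a encodes an active synthetase with a single catalytic unit. Its probe set read 10.43, 10.44 and 10.67 in the Irgm1-/- group, against 9.37, 9.25 and 8.93 in the wild-type group. The lowest Irgm1-/- array thus lay 1.07 above the highest wild-type array. The difference was 1.33 (SE 0.16, 95% interval 0.95 to 1.72, limma adjusted p = 0.016). Oas1a and Oas1g are close copies, so signal of Oas1g in this probe set cannot be separated from that of Oas1a. The call was lost without Irgm1-/- replicate 1 (adjusted p = 0.0699) or 2 (0.0637) and without wild-type replicate 1 (0.0577) or 2 (0.0811), while the difference stayed between 1.21 and 1.42 with any 1 array left out.

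Oas1b is the gene at the flavivirus resistance locus of mice, and its C57BL/6 allele encodes a truncated protein. It read 5.59, 6.20 and 6.35 in the Irgm1-/- group, against 5.90, 5.85 and 5.79 in the wild-type group. The groups overlapped, as Irgm1-/- replicate 1 was the lowest of the 6 arrays. The difference of 0.20 did not pass (SE 0.23, limma adjusted p = 0.707), and its 95% interval, −0.32 to 0.73, leaves out a rise of the size measured for Oas1a.

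Oas2 carries repeated synthetase units. It read 9.28, 9.56 and 9.98 in the Irgm1-/- group, against 8.23, 7.85 and 7.38 in the wild-type group, and no value of either group fell among those of the other. The difference was 1.79 (SE 0.27, 95% interval 1.16 to 2.42, limma adjusted p = 0.0313). The call rests on all 6 arrays, since the adjusted p lay between 0.0617 and 0.124 with any 1 left out, while the difference stayed between 1.57 and 1.99.

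Oas3, the longest synthetase, whose human counterpart is the main activator of RNase L, read 4.67, 5.21 and 5.47 in the Irgm1-/- group, against 4.78, 3.75 and 4.01 in the wild-type group. Irgm1-/- replicate 1 lay below wild-type replicate 1, so the groups overlapped. Its difference was 0.94 and did not pass (SE 0.31, 95% interval 0.22 to 1.66, unadjusted p = 0.017, limma adjusted p = 0.203).

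Oasl1 is a synthetase-like protein without synthetase activity, with ubiquitin-like domains at its end, and in mice it restrains translation of the mRNA of Irf7. Its values were 7.80, 8.05 and 8.13 in the Irgm1-/- group, against 5.64, 5.09 and 4.48 in the wild-type group. The gap between the nearest arrays of the groups was 2.16, and the wild-type arrays spread more widely (SD 0.58) than the Irgm1-/- arrays (SD 0.17). The difference was 2.92 (SE 0.30, 95% interval 2.23 to 3.62, limma adjusted p = 0.00788). It lost the call without wild-type replicate 2 (2.93, adjusted p = 0.0536) and kept it without any other single array, with a difference between 2.63 and 3.21 in all 6 cases.

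Oasl2, the neighbour of Oasl1, has the same ubiquitin-like domains and in mice keeps synthetase activity. It read 8.96, 9.59 and 9.63 in the Irgm1-/- group, against 8.76, 8.55 and 8.29 in the wild-type group. The groups were separated by 0.19, and the difference of 0.86 did not pass (SE 0.23, 95% interval 0.32 to 1.40, unadjusted p = 0.00666, limma adjusted p = 0.14).

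Neither Mx gene was called. Mx1, whose product acts in the nucleus against influenza viruses in mice with an intact allele, read 5.62, 5.11 and 5.63 in the Irgm1-/- group, against 4.95, 4.43 and 4.68 in the wild-type group. The groups were separated by 0.15, and the difference was 0.76 and did not pass (SE 0.21, 95% interval 0.27 to 1.25, unadjusted p = 0.00745, limma adjusted p = 0.145). Mx2, whose intact product acts in the cytoplasm, read 2.23, 2.23 and 2.27 in the Irgm1-/- group, against 2.16, 2.21 and 2.17 in the wild-type group. All 6 values lay below the highest control probe set for bacterial transcripts on their array (3.00 to 3.18), so Mx2 was not detected above those controls in either group. Where the probes of Mx1 and Mx2 lie relative to the defects of the C57BL/6 alleles is not given in the sources used here.

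**Figure D2:**
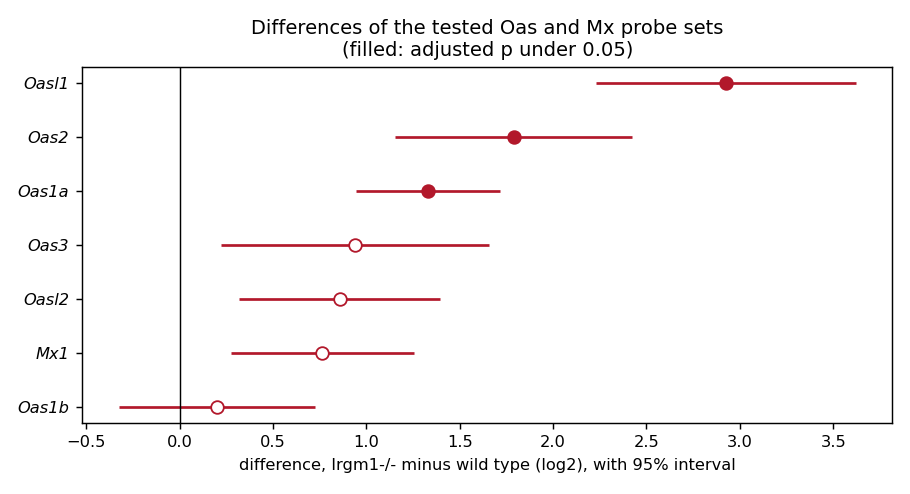
Difference in log2 expression, arrays of mice labelled Irgm1-/- minus wild-type arrays (horizontal axis), for the 7 tested probe sets, with 95% intervals from limma and filled points for adjusted p under 0.05. The interval of Oasl1 starts at 2.23, above the ends of the intervals of Oas1a (1.72) and of the 4 genes under it, and the interval of Oas1b alone spans 0.

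In order of their differences the tested genes ran Oasl1, Oas2, Oas1a, Oas3, Oasl2, Mx1 and Oas1b. Each was compared with the next by the difference of their log2 values on each array. The order came from these same differences, so the sign of each comparison was fixed in advance. The difference between the groups was larger for Oasl1 than for Oas2 by 1.14 on the log2 scale, and their values on each array, taken as Oasl1 minus Oas2, did not overlap between the groups (two-sided exact permutation test, p = 0.1, adjusted p = 0.4 over 6 such pairs). The smallest p that this exact test can give with 3 arrays against 3 is 0.1. The other 5 adjacent pairs overlapped between the groups, and pairs farther apart in the order were not compared.

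The tested genes ranked the arrays of a group alike. Irgm1-/- replicate 3 was the highest of its group for 7 of 7 tested genes and replicate 1 the lowest for 6 of 7. Among the wild-type arrays, replicate 1 was the highest for 7 of 7 and replicate 3 the lowest for 5 of 7. The share of all tested probe sets with the same order was not counted, so the order is not shown to be particular to these genes. The mean over the 7 genes was 7.48, 7.74 and 7.98 in the Irgm1-/- group, against 6.81, 6.39 and 6.22 in the wild-type group, and the groups did not overlap in this mean.

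Markers of other cells also differed between these arrays. Of 15 T and NK cell markers, 13 had a probe set and 9 were tested, of which 5 rose (Ccl5, Klrd1, Ms4a4b, Gzmb and Thy1). Of all tested genes, each by 1 probe set, 1.08% were called higher. Ccl5 was the brightest of the 13 on each Irgm1-/- array (12.81, 12.77 and 13.52 on the log2 scale, against 8.69, 7.33 and 8.29 in the wild-type group). It thus weighs most in a linear sum on the Irgm1-/- arrays. The summed linear expression of the 13 was 10222, 9466 and 20385 in the Irgm1-/- group, against 875, 494 and 993 in the wild-type group. Irgm1-/- replicate 3, highest for the Oas and Mx genes, was highest here too, and replicate 2 lowest, while wild-type replicate 3, mostly lowest for the Oas and Mx genes, was the highest wild-type array here. The CD3 subunit genes Cd3d and Cd3g were at or below the bacterial controls on all wild-type arrays and above them on all Irgm1-/- arrays. The other CD3 subunit genes, Cd3e (limma adjusted p = 0.464) and Cd247 (limma adjusted p = 0.829), were above the controls on all 6 arrays and were not called. Ncr1 and Prf1 were at or below the controls on all 6. Without Irgm1-/- replicate 3 the differences were 2.86 for Oasl1 (adjusted p = 0.027), 1.60 for Oas2 (0.0617) and 1.25 for Oas1a (0.0402). The sums of Irgm1-/- replicates 1 and 2 still lay above all wild-type sums, so this fit did not remove the difference in T and NK cell markers.

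Of 8 plasmacytoid dendritic cell markers, limma called 0 of the 5 tested. At an unadjusted p under 0.05, 0 were higher and 1 was lower, where 7.52% of all tested probe sets were higher and 8.90% lower. Of the 8, Siglech, Spib and Cox6a2 were above the bacterial controls on wild-type replicate 1 (4.16, 5.69 and 3.62) and on no other array. Ccr9, Klk1, Pacsin1, Tcf4 and Irf8 were above them on all 6. Wild-type replicate 1 was the highest wild-type array for the Oas and Mx genes. It also had the highest sums of the 6 arrays for markers of monocytes and macrophages (3739), B cells (237) and neutrophils (232). It did not for erythroid cells, nor for the 8 plasmacytoid dendritic cell markers (2228, against 2477 on Irgm1-/- replicate 1, the highest). The B cell marker Igll1 (4.39) was above the controls on wild-type replicate 1 alone. Leaving out Irgm1-/- replicate 3 and wild-type replicate 1 together, an alternative chosen after the data were seen, gave differences of 3.14 for Oasl1 (adjusted p = 0.0445), 1.80 for Oas2 (0.11) and 1.34 for Oas1a (0.111). The summed markers of monocytes and macrophages (1999 to 3482 on Irgm1-/- and 2152 to 3739 on wild-type arrays), B cells, neutrophils and erythroid cells overlapped between the groups, and limma called 0 of these markers, of which the tested ones numbered 6, 2, 2 and 2. At an unadjusted p under 0.05, 2 monocyte and macrophage markers were higher and 1 was lower, and 0 of the other 3 lists. The shares over all tested probe sets were the same 7.52% and 8.90%. All 7 stem cell markers with a probe set (Kit, Procr, Slamf1, Tek, Abcg2, Hlf and Mecom) were above the bacterial controls on all 6 arrays. Of these, 0 were called, while 1 was higher and 3 were lower at an unadjusted p under 0.05, beside these shares. The part of other cells in the Oas and Mx differences was not tested.

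**Figure D3:**
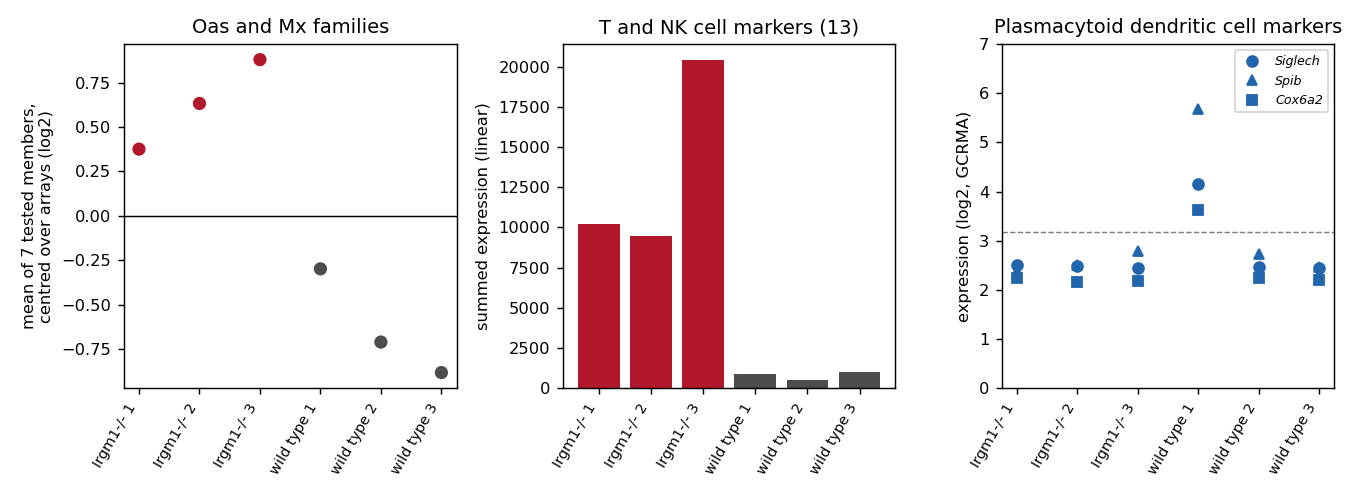
Left, the mean of the 7 tested Oas and Mx probe sets on each array, each centred over the 6 arrays (log2). Middle, the summed linear expression of 13 T and NK cell markers, of which Ccl5 was the brightest on each Irgm1-/- array. Right, the log2 expression of 3 of the 8 listed plasmacytoid dendritic cell markers, with the highest bacterial control dashed. Irgm1-/- replicate 3 is highest in the left and middle panels, and the 3 markers at the right rise above the line on wild-type replicate 1 alone. The other 5 markers of that list are not drawn and were above each array's bacterial controls on all 6 arrays.

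The technical controls were read beside these values. The actin control probe sets at the 3' and 5' ends of the transcript differed by 2.86, 2.81 and 3.56 in the Irgm1-/- group. In the wild-type group the gap was 3.16, 3.16 and 2.57. It was thus largest on Irgm1-/- replicate 3, highest of its group for the Oas and Mx genes. The smallest was on wild-type replicate 3, mostly lowest for them. With this gap as a covariate Oasl1, Oas2 and Oas1a differed by 2.84, 1.68 and 1.28 and were called. The same gap for Gapdh was 2.57, 2.56 and 2.94 in the Irgm1-/- group, against 2.77, 2.72 and 3.08 in the wild-type group. It was largest on wild-type replicate 3. The 5' control probe set of 18S ribosomal RNA was higher in the Irgm1-/- group (11.20 to 12.47) than in the wild-type group (9.31 to 11.15), with no overlap, and its part in the differences was not tested.

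Other genes of the Oas pathway gave 0 calls. Of 9 listed, 7 had a probe set and 3 were tested, of which limma called 0, while 1 was higher at an unadjusted p under 0.05, where 7.52% of all tested probe sets were. That was Pde12, a phosphodiesterase that degrades 2'-5' oligoadenylates, at 8.74, 8.75 and 8.67 in the Irgm1-/- group, against 8.00, 8.15 and 8.48 in the wild-type group, a difference of 0.51 (SE 0.18, limma adjusted p = 0.223). Abce1, an ATPase known also as an inhibitor of RNase L, differed by 0.38 (limma adjusted p = 0.42) and Cgas, a DNA sensor whose fold resembles that of the synthetases, by 0.25 (limma adjusted p = 0.509), and the groups overlapped for both. The Oas1 relatives Oas1c, Oas1e, Oas1f and Oas1h, which lie in the same cluster, were too dim to be tested. Oas1e, Oas1f and Oas1h were at or below the bacterial controls on all 6 arrays, and Oas1c, at 3.63, 3.42 and 3.61 in the Irgm1-/- group, against 2.96, 3.63 and 3.46 in the wild-type group, was above them on 5.

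Genes beside the families in chromosome order were looked at after the members' values were seen. For each of the 3 groups, the 5 nearest tested genes on either side were taken, each by its brightest tested probe set. Of these 30 neighbours, 0 were called higher and 1 lower, against 1.08% and 0.954% of all tested genes. At an unadjusted p under 0.05 there were 0 higher and 3 lower, against 7.52% and 8.90% of all tested probe sets. The neighbours of Oasl1 and Oasl2 differed by −0.36 to 0.48 and those of the Oas1 to Oas3 cluster by −0.50 to 0.57. The gene called lower was Bace2, an aspartyl protease gene and the nearest tested gene before the Mx pair, at 4.15, 4.16 and 4.26 in the Irgm1-/- group, against 5.91, 5.87 and 5.81 in the wild-type group (difference −1.67, limma adjusted p = 0.00237).

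**Figure D4:**
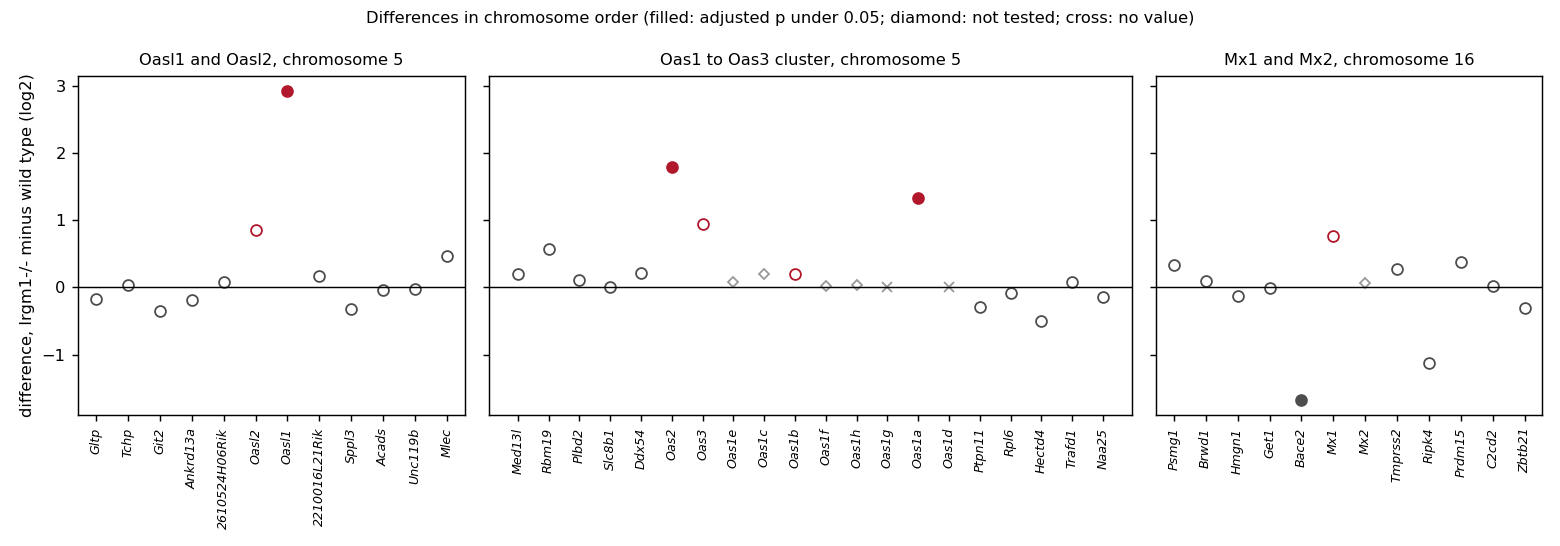
Difference in log2 expression, arrays of mice labelled Irgm1-/- minus wild-type arrays (vertical axis), for Oas and Mx genes (red) and the 5 nearest tested genes on either side (grey) in chromosome order, without distances. Filled circles passed the threshold, diamonds were not tested, and crosses are genes with no value. Oasl1, Oas2 and Oas1a stand above genes on either side whose differences lie between −0.50 and 0.57.

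The non-interferon members of the dynamin superfamily were set beside Mx1. Of 7 relatives, 5 were tested, limma called 0, and 0 passed at an unadjusted p under 0.05. Their median difference was −0.04. Dnm1l, which drives mitochondrial fission, read 10.51, 10.55 and 10.33 in the Irgm1-/- group, against 10.05, 10.22 and 10.26 in the wild-type group (difference 0.29, limma adjusted p = 0.342). Mfn1, which fuses mitochondria, differed by −0.44 (limma adjusted p = 0.384). The remaining tested relatives were Mfn2 (−0.15), Opa1 (0.13) and Dnm2 (−0.04), with adjusted p from 0.723 to 0.945.

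Among genes that make or relay the interferon signal, the 2 that rose were Irf7 and Usp18. Of 21 listed, 20 had a probe set, 17 were tested, 2 rose, 0 fell and 15 did not pass, where 1.08% of all tested genes, each by 1 probe set, were called higher and 0.954% lower. The type I ligand genes Ifnb1 and Ifna4 were at or below the bacterial controls on all 6 arrays. Ifng, the gene of interferon gamma, read 6.28, 5.53 and 8.54 in the Irgm1-/- group, against 3.97, 2.79 and 3.98 in the wild-type group. Its groups did not overlap, and its difference of 3.21 did not pass (SE 0.73, limma adjusted p = 0.1). Its highest array was Irgm1-/- replicate 3, where the T and NK cell markers were also highest.

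Among receptors and kinases, the receptor subunit genes Ifnar1 (0.70), Ifnar2 (−0.14), Ifngr1 (−0.16) and Ifngr2 (−0.31) and the kinase genes Jak1 (−0.33), Jak2 (0.24) and Tyk2 (0.29) did not pass, with limma adjusted p from 0.291 to 0.699. Of these, the groups did not overlap for Ifnar2, Ifngr2 and Jak1, each lower in the Irgm1-/- group, while Ifnar1 was higher at an unadjusted limma p of 0.0437. Over the 17 tested genes of this list, the Irgm1-/- arrays all lay above the wild-type arrays for 4 and below them for 3. Of all tested probe sets, 11.5% and 11.0% did so. Stat2 differed by 0.17 (adjusted p = 0.752) and Irf9 by −0.08 (adjusted p = 0.873), both partners in the complex that binds the response element. The factor Irf7, which amplifies interferon production, rose to 9.32, 9.92 and 9.76 in the Irgm1-/- group, against 7.95, 7.71 and 6.73 in the wild-type group (difference 2.20, SE 0.33, limma adjusted p = 0.0313). Usp18, which restrains signalling at the type I receptor, rose to 6.65, 7.37 and 7.63, against 4.06, 4.62 and 4.04 in the wild-type group (difference 2.98, SE 0.29, limma adjusted p = 0.00737). Without wild-type replicate 3 Irf7 was still called, whereas leaving out any of the other 5 arrays ended its call (adjusted p up to 0.117). Usp18 was called in all 6 such fits.

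Of the other antiviral genes induced by interferon, 24 were tested among 26 listed. Of these, 6 rose, 0 fell and 18 did not pass, where 1.08% of all tested genes were called higher and 0.954% lower. At an unadjusted p under 0.05, 13 were higher and 0 lower, against 7.52% and 8.90% of all tested probe sets. Their median difference was 0.53, beside 0.94 for the 7 Oas and Mx genes and 0.00 for all 10374 tested genes, and the lists were not tested against each other. The 6 that rose were Ifit1 (4.10), Ifit2 (1.77) and Ifit3 (2.34), which encode proteins that bind foreign RNA, Rsad2 (3.33, viperin), Ifi27l2a (2.79) and the nucleic acid sensor gene Zbp1 (1.32). Of these, Ifit1, Rsad2 and Ifi27l2a kept the call without any 1 array, whereas the others lost it without at least 1 array, with adjusted p of up to 0.147 for Ifit3, 0.0782 for Ifit2 and 0.0703 for Zbp1. The RNA sensor gene Ifih1, which like the synthetases is bound by double-stranded RNA, read 11.30, 11.79 and 11.50 in the Irgm1-/- group, against 10.76, 10.73 and 10.61 in the wild-type group and lay just outside the threshold (difference 0.83, limma adjusted p = 0.0529). Of the promoter windows available, the response element core was found in those of 10 of 20 genes of this list, against 3.44% of all windows. The 10 were Ifit1, Ifit3 and Rsad2, which rose, Bst2, Ddx58, Eif2ak2, Ifih1, Ifitm3 and Trim30a, which were not called, and Isg15, without a value here. It was found for 4 of 18 genes of the signalling list, none of them called, 1 of 6 Oas pathway partners and 0 of 7 dynamin relatives. Whether a match goes with a rise was not tested.

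**Figure D5:**
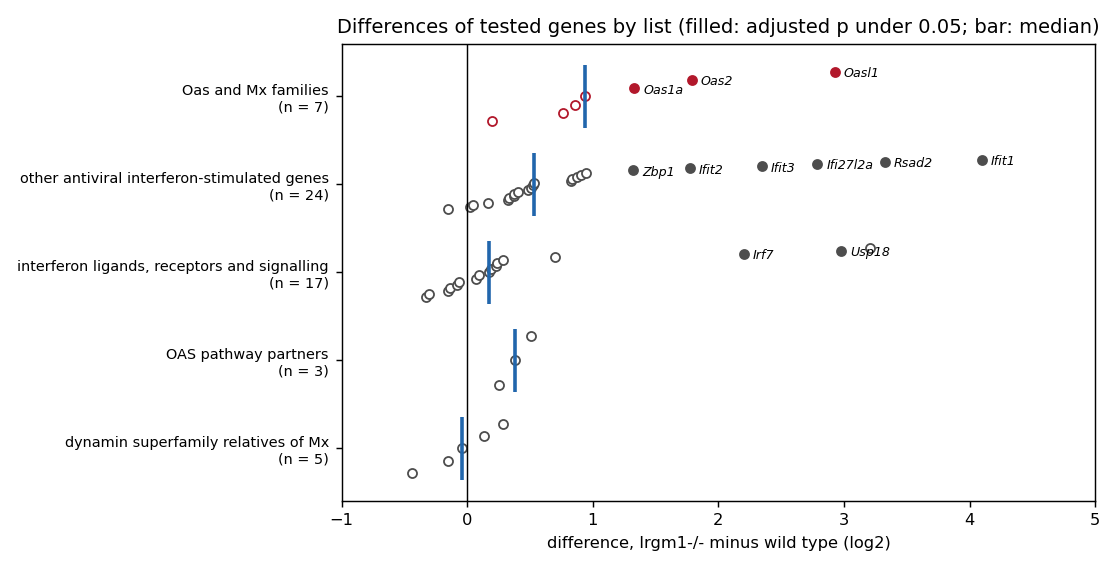
Difference in log2 expression, arrays of mice labelled Irgm1-/- minus wild-type arrays (horizontal axis), for tested genes of 5 lists, 1 probe set per gene, with the Oas and Mx genes in red. Filled points passed an adjusted p under 0.05 and blue bars are medians, which lie at 0.94 for the Oas and Mx genes and at −0.04 for the dynamin relatives.

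The genes whose pattern over the 6 arrays was nearest to the mean of the 7 tested members were named by the smallest root mean square distance between centred log2 values, among 18522 other tested probe sets with 1 symbol. They were Timeless (0.12), a replication fork protein, Ncapd2 (0.12), a condensin subunit, Fgl2 (0.13), a fibrinogen-like protein, 1 probe set of the RNA sensor gene Ddx58 (0.17), Slfn8 (0.17) of the Schlafen family and Fyb (0.17), an adaptor of T cells and platelets. The median distance of all these probe sets was 0.70. Among the members, Oas1a lay nearest to the members' mean (0.13) and Oasl1 farthest (0.85). The probe set of Ddx58 with the highest mean, which represented the gene among the antiviral genes, differed by 0.17 (limma adjusted p = 0.786), and the probe set named here by 1.02 (limma adjusted p = 0.129). Neither was called, and they were not tested against each other.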

How the data were processed

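The deposited table holds 1 log2 expression value per probe set and array. The submitters' processing notes name GCRMA, a method that corrects background by probe sequence, normalises arrays to each other and merges probes into 1 value. Which version was used is not given in the sources used here. The log2 scale rests on the range of the values, which were used as deposited by the authors. Of 45101 probe sets, 34958 had 1 gene symbol.

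A probe set was tested when above the array's median on at least 3 of the 6 arrays and not an Affymetrix control, which left 22580. The comparison, Irgm1-/- minus wild type, used lmFit, then eBayes with its prior variance trended on intensity, without covariates (limma 3.58.1, R 4.3.3, two-sided). Adjusted p-values are Benjamini-Hochberg over all tested probe sets, with the threshold at 0.05. Genes of lists were represented by the tested probe set with the highest mean. The code was tested on simulated data. The number of arrays limits the precision. The members, lists and tests were chosen with earlier results of these data known. Named were all members, list genes called or, up to 4, of smallest p, the 6 nearest patterns and Irgm1, with others by role, chosen after their values were seen. Alternatives were other filters, normalisations, variance models and weights, a replicate block, an actin covariate and arrays left out.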

Additional observations from a re-analysis of the deposited data

How the results depend on the processing

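The differences of the 7 tested Oas and Mx genes kept their sign under all alternatives that tested them. Counts are of calls higher, and the count by gene equals that by probe set, since each gene had 1 probe set. The Oas and Mx count was 3, 0 to 2 with 1 array left out, 1 without Irgm1-/- replicate 3 and wild-type replicate 1 together, and 2 or 3 under the other filters, normalisations, variance model, weights, threshold and covariate. The 0 calls, without wild-type replicate 2 and with the replicate block, are limma counts, while 6 of 7 had an unadjusted p under 0.05 with all arrays. Oas2 lost the call with no filter (adjusted p = 0.0744) and at the 25th percentile (0.0618). The adjusted p over alternatives was 0.000766 to 0.0536 for Oasl1, 0.00635 to 0.135 for Oas2 and 0.00523 to 0.111 for Oas1a.

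Of all probe sets, 150 were called higher and 163 lower, with 49 and 54 under no filter, 62 and 64 at the 25th percentile, 401 and 463 with array weights, 252 and 263 with the actin covariate, 17 to 138 and 28 to 129 with 1 array left out, and 24 and 28 with the 2 arrays left out together. The signalling list, with 2 calls, gave 1 under no filter, at the 25th percentile and at the 70th percentile, 3 with array weights, 1 to 2 with 1 array left out and 0 with the 2 arrays left out. The other antiviral list, with 6, gave 3 to 5 with 1 array left out and 2 with the 2 arrays left out. Why counts moved was not tested, except that fewer arrays leave less to estimate the spread.

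Arrays of the 2 groups share replicate numbers. The deviations of same-numbered arrays correlated at −0.11, −0.02 and −0.28 over the tested probe sets, and those of differently numbered arrays at −0.20 to 0.24. With 3 arrays per group, these values cannot show whether same-numbered arrays were prepared together. With the replicate block, limma called 0 Oas and Mx genes higher (Oasl1 2.92, adjusted p = 0.0533; Oas2 1.79, 0.135; Oas1a 1.33, 0.103), 1 signalling gene, 2 other antiviral genes, and 27 higher and 41 lower of all probe sets.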
